A study of Homo sapiens with 3 samples.

Results

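Epithelial-mesenchymal transition (EMT) is the program by which epithelial cells give up their junctions and take on the shape and motility of mesenchymal cells. The 10 genes described here were chosen by name, as epithelial markers (CDH1, EPCAM and ESRP1), mesenchymal markers (CDH2, VIM and FN1) and transcriptional repressors of epithelial genes (ZEB1, ZEB2, SNAI1 and SNAI2). All 10 are among the 51136 gene symbols of the deposited count table. RNA-seq was done on PANC-1, a human cell line established from a ductal carcinoma of the pancreas, in 3 libraries. The control library came from cells that received no agent, the Rg3 library from cells given Ginsenoside Rg3 (a saponin of ginseng) at 200 μM for 24 h, and the TAM library from cells given tamoxifen (an antiestrogen that also inhibits protein kinase C) at 50 μM for 24 h. The series compared expression after either agent with that of untreated cells. Whether the control cells received a vehicle is not given in the sources used here.

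In carcinomas, CDH1 (E-cadherin) holds neighbouring epithelial cells together, and its exchange for CDH2 (N-cadherin) is the classical cadherin switch of EMT. The zinc finger proteins SNAI1, SNAI2, ZEB1 and ZEB2 bind E-boxes in the promoters of CDH1 and other epithelial genes and repress them. The ZEB factors and the miR-200 microRNAs repress each other, and ESRP1 keeps the epithelial splice forms of many transcripts. PANC-1 is widely used as a pancreatic cancer line with mesenchymal features.

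The libraries held 11300766 counts on genes for control, 12861693 for Rg3 and 11321442 for TAM. There was 1 library per condition, so that no difference below has a replicate check, and agent, dose and culture cannot be told apart. Intervals are exact 95% intervals that cover counting error only. Fold changes are log2 ratios of counts after TMM scaling (edgeR), which sets libraries on a common scale by the bulk of their genes. Against scaling by totals, this moved the log2 values by -0.14 for Rg3 and by 0.21 for TAM. Comparisons took genes that reached 10 counts in either library, and a gene was counted as higher or lower when the fold passed 1.5 in either direction. Levels are given as CPM, counts scaled by the TMM-adjusted library size. Log2 fold changes ran with the GC content of the transcripts. Spearman's rho was -0.81 for Rg3 over 11583 genes of 50 or more counts, and 0.51 for TAM over 11022, genes not being independent. With transcript length, rho was 0.20 for Rg3 and -0.45 for TAM. Each member compared is therefore also given after removal of a smooth trend on GC content and then of one on length. After removal, rho with GC content was -0.01 for Rg3 and -0.12 for TAM, so that a small trend of the other sign remained for TAM. All 7 ductal and epithelial markers had reads, with sums of 28627, 16634 and 28964 in control, Rg3 and TAM, so that the Rg3 sum was lowest. These sums came mainly from KRT8 and KRT18. Before scaling, KRT7, KRT8, KRT18 and MUC1 had the fewest reads with Rg3. KRT19 (665, 290 and 181 reads), SOX9 (996, 916 and 723) and EPCAM (26, 26 and 8) had the fewest with TAM, also before scaling. The TMM-adjusted library sizes were 11481956 for control, 14399706 for Rg3 and 9952639 for TAM. After this scaling SOX9 was lowest with Rg3 and not with TAM, and KRT19 was at a similar level in both treated libraries. The 5 islet markers and 5 of 6 acinar markers had none. Of 8 fibroblast markers, 2 were at 0 in each library, PDGFRA among them, and the sums of 2146, 1166 and 938 came mainly from COL1A1. Of 6 leukocyte markers, at most 3 had reads, PTPRC had at most 1, and the sums of 712, 472 and 1138 came mainly from CD68. The endothelial markers summed to 57 in each library, with CDH5 at 0, and these reads came mainly from KDR (49, 54 and 52). The part of these shifts in the results was not tested.

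The sequences before the annotated starts are shown for ZEB1 and VIM, since ZEB1 was lower in the TAM library and VIM in the Rg3 library, and since the repressors of this group bind the E-box CAGGTG. Promoter windows from RefSeq (GRCh38.p14) were matched for 5 of the 10 genes, ZEB1, ZEB2, VIM, FN1 and CDH2. The motif CAGGTG was searched on both strands (CACCTG on the other) in the 250 bases before each start, and matches are in capitals. Of 35116 such windows, 17.5% held it. Among the 12 windows of these genes it was in 2, both of them starts of ZEB1. The first window is chr10:31318167-31318416, on the plus strand, before the most upstream ZEB1 start, with the match beginning at position -57. The second is chr10:17227991-17228240, plus strand, before VIM, with no match. A match describes letters and not a bound site.
ZEB1: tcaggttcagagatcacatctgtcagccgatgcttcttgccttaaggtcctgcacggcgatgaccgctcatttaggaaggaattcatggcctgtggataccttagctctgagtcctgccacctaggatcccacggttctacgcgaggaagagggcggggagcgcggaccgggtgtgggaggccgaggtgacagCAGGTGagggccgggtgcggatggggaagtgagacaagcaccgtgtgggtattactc
VIM: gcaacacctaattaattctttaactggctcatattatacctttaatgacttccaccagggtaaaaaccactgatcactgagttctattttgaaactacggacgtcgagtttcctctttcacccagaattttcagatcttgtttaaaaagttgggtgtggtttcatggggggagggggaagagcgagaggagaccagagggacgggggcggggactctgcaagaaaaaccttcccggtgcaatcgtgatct

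**Figure D1:**
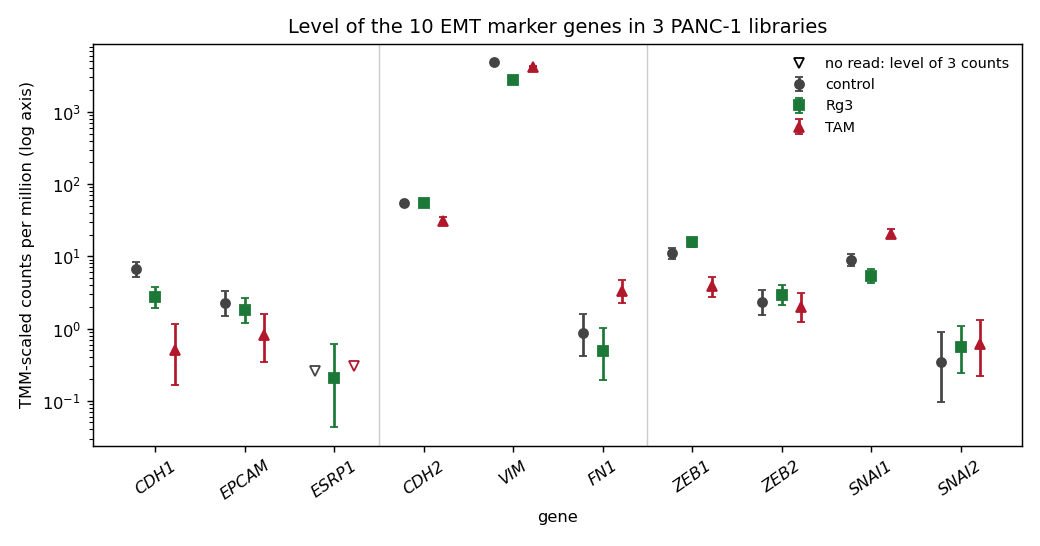
Levels of the 10 genes in the 3 libraries as TMM-scaled CPM on a log axis, with epithelial markers on the left, mesenchymal markers in the middle and repressors on the right. Bars are exact 95% counting intervals of single libraries, and open inverted triangles give the level of 3 counts where no read was found. VIM lies between 2763 and 4814 CPM, while CDH1 lies at 6.62 CPM in control, 2.71 with Rg3 and 0.502 with TAM.

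In control cells the transcripts of this group were dominated by VIM, the intermediate filament protein of mesenchymal cells. VIM had 55276 reads (4814 CPM) and was the gene with the 9th highest count in the library. CDH2 followed with 626 reads (54.5 CPM). The epithelial markers were far lower, with 76 reads for CDH1 (6.62 CPM, 5.22 to 8.28), 26 for EPCAM, an epithelial adhesion molecule (2.26 CPM, 1.48 to 3.32), and 0 for ESRP1, where the exact interval reaches 0.321 CPM and 3 counts would be 0.261 CPM. Among the repressors, ZEB1 had 127 reads and SNAI1 102, while ZEB2 had 27 and SNAI2 only 4. FN1, the matrix protein fibronectin, had 10 reads, so that a low fibronectin level stood beside the high vimentin level. Per kilobase of the longest GENCODE transcript, the order was VIM (1806 CPM per kilobase), CDH2 (12.6), SNAI1 (5.27), ZEB1 (1.76), CDH1 (1.35), EPCAM (1.31), ZEB2 (0.245), SNAI2 (0.123), FN1 (0.0950) and ESRP1, listed at 0. The counting intervals of the neighbours ZEB1 and CDH1, CDH1 and EPCAM, ZEB2 and SNAI2, SNAI2 and FN1, and FN1 and ESRP1 overlapped, and those of the other neighbours did not.

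With Rg3, none of the 8 genes compared was higher by the 1.5-fold limit and 4 were lower, namely CDH1, VIM, FN1 and SNAI1. Among all 16487 genes compared, 25.0% were higher and 19.3% were lower, or 44.3% in either direction. When an exact binomial test on the reads was also required (adjusted p under 0.05 over all genes, comparing 2 libraries and not conditions), CDH1, VIM and SNAI1 remained, 3 of 8 lower beside 15.6% of all genes, and 0 higher beside 20.5%. Where the variation between cultures was assumed, at a coefficient of 0.2, none of the 8 genes passed edgeR's exact test. The median log2 fold change of the 8 genes was -0.52, beside 0.04 over all genes. ESRP1 and SNAI2 were under 10 counts in every library and were not compared. In bulk RNA, fewer cells of a type and less RNA per cell cannot be told apart.

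With TAM, 2 of the 8 genes were higher (FN1 and SNAI1) and 4 were lower (CDH1, CDH2, EPCAM and ZEB1). Over all 16079 genes compared, 17.4% were higher and 23.5% were lower, or 40.9% in either direction. The same 6 genes passed with the binomial test added, beside 14.0% of all genes higher and 18.3% lower. With an assumed coefficient of 0.2, CDH1 was the 1 member that still passed edgeR's exact test, and at 0.4 none of the 8 did. The median was -0.52 for the 8 genes and -0.02 for all genes. Both comparisons share the control library, so that their values are set side by side only.

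**Figure D2:**
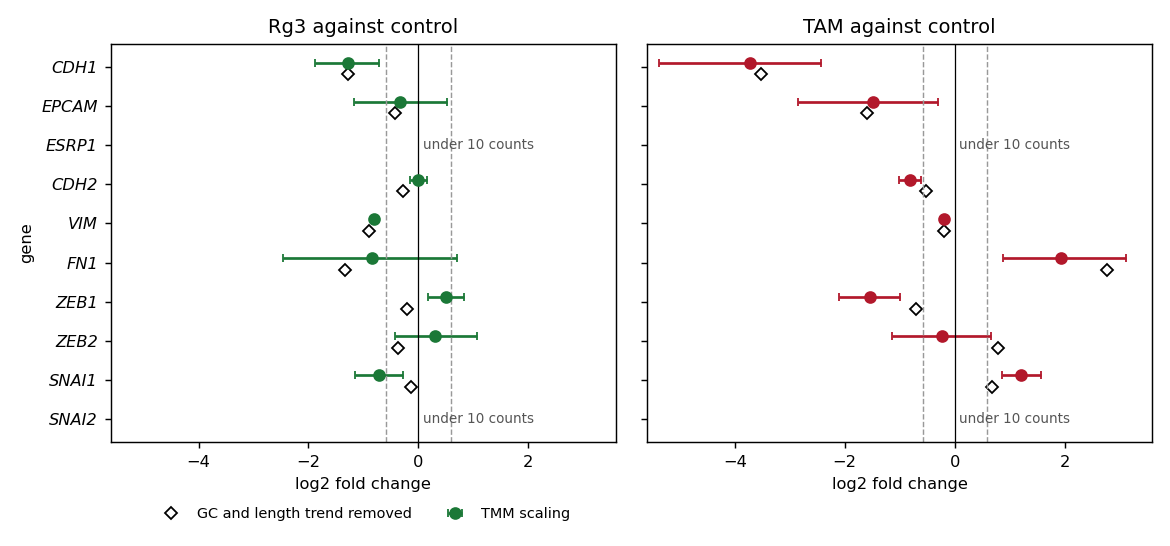
Log2 fold change of each compared gene against the control library with Rg3 (left) and TAM (right). Filled circles are TMM-scaled values with exact 95% counting intervals, open diamonds are values after removal of the GC and length trends, and dashed lines mark 1.5-fold. CDH1 lies left of the limit in both panels (-1.29 and -3.72), and FN1 (1.93) and SNAI1 (1.21) lie right of it with TAM.

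CDH1 was lower in both treated libraries. This gene on chromosome 16 (68737225 to 68835548, plus strand; GRCh38, GENCODE 29, as for all positions here) had 76 reads in control, 39 with Rg3 and 5 with TAM. The level was highest in control and lowest with TAM, and the 3 counting intervals of the level did not overlap. The log2 fold change was -1.29 with Rg3 (-1.89 to -0.71), a level 2.44-fold lower. With TAM it was -3.72 (-5.38 to -2.43), or 13.2-fold lower, and 0.0249% of all genes compared had a lower value. Removal of the GC and length trend left -1.27 and -3.52. AC099314.1 on the opposite strand overlaps CDH1 and shares 2.40% of its stretches of 50 bases, and the use of strand in counting is not given in the sources used here.

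EPCAM, on chromosome 2 (47345158 to 47387601, plus strand), shares 2.57% of its stretches of 50 bases with AC093840.1. It had 26 reads in control, 26 with Rg3 and 8 with TAM. Its TAM count was the lowest, and the level intervals of control (1.48 to 3.32 CPM) and TAM (0.347 to 1.58 CPM) overlapped slightly. With TAM the log2 fold change was -1.49 (-2.85 to -0.31), and -1.59 without the trend. With Rg3 it was -0.33, with an interval from -1.17 to 0.52 that includes 0, and -0.42 without the trend. ESRP1, on chromosome 8 (94641074 to 94707466, plus strand), had 0, 3 and 0 reads, where no difference could be detected at this depth.

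The 3 mesenchymal markers differed in direction. VIM, on chromosome 10 (17228259 to 17237593, plus strand), had 55276 reads in control, 39783 with Rg3 and 42048 with TAM. The Rg3 library was lowest for its depth, with 2763 CPM against 4814 in control and 4225 with TAM. The log2 fold change with Rg3 was -0.80 (-0.82 to -0.78), and -0.90 without the trend. With TAM it was -0.19 (-0.21 to -0.17), within 1.5-fold, and -0.19 without the trend. On the opposite strand, VIM-AS1 had 5, 18 and 7 reads, and AL133415.1 shares 7.80% of the stretches of 50 bases of VIM.

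CDH2, on chromosome 18 (27950966 to 28177446, minus strand), shares 2.10% of these stretches with AC110015.1 on the opposite strand. It had 626 reads in control, 784 with Rg3 and 308 with TAM. Control and Rg3 were at the same level within counting error (54.5 and 54.4 CPM), with a log2 fold change of -0.00 (-0.16 to 0.15), and the TAM library was lower at 30.9 CPM. The log2 fold change with TAM was -0.82 (-1.02 to -0.62). Without the trend it was -0.53, no longer past 1.5-fold, and the Rg3 value was -0.27.

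FN1, on chromosome 2 (215360440 to 215436172, minus strand), had 10 reads in control, 7 with Rg3 and 33 with TAM. The TAM library stood above the others, and the level intervals of control (0.418 to 1.60 CPM) and TAM (2.28 to 4.66 CPM) did not overlap. With TAM the log2 fold change was 1.93 (0.87 to 3.11), a 3.81-fold higher level, and 2.77 without the trend. With Rg3 the value of -0.84 passed the fold limit, but its interval (-2.47 to 0.70) includes 0, and the 7 and 10 reads do not separate these libraries. Without the trend the Rg3 value was -1.33.

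The repressors of the ZEB and SNAI families took different courses. ZEB1, on chromosome 10 (31318495 to 31529814, plus strand), whose promoter window with the E-box is shown above, had 127 reads in control, 225 with Rg3 and 38 with TAM. The Rg3 level was highest (15.6 CPM) and the TAM level lowest (3.82 CPM), and the 3 counting intervals did not overlap. The log2 fold change was 0.50 with Rg3 (0.18 to 0.82), within 1.5-fold, though 0.64 and past it with library totals, and -1.53 with TAM, a ratio of 0.345 (0.234 to 0.499). ZEB1 is rich in A and T, with a GC content of 38.5%, and without the trend its values were -0.21 with Rg3, of the other sign, and -0.70 with TAM. ZEB1-AS1 on the opposite strand had 13, 15 and 8 reads.

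ZEB2, on chromosome 2 (144364364 to 144524583, minus strand), had 27, 42 and 20 reads in control, Rg3 and TAM. The 3 level intervals overlapped. Its log2 fold changes of 0.31 with Rg3 (-0.42 to 1.06) and -0.23 with TAM (-1.14 to 0.66) did not differ from 0 beyond counting error. Its GC content of 39.1% is near that of ZEB1. Without the trend both values turned, to -0.36 with Rg3 and to 0.80 with TAM, the latter past 1.5-fold. It shares 4.82% of its stretches of 50 bases with other genes, mainly ZEB2-AS1 and the pseudogene ZEB2P1.

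SNAI1, on chromosome 20 (49982999 to 49988886, plus strand), had 102 reads in control, 78 with Rg3 and 205 with TAM. Its level was 8.88 CPM in control, 5.42 with Rg3 and 20.6 with TAM, and the 3 counting intervals did not overlap. The log2 fold change with TAM was 1.21 (0.86 to 1.57), a 2.32-fold higher level, and with Rg3 it was -0.71 (-1.16 to -0.27). SNAI1 has a GC content of 58.2%. Without the trend the values were 0.67 with TAM, still past 1.5-fold, and -0.13 with Rg3, no longer so. With library totals the Rg3 value was -0.57, just within 1.5-fold. SNAI2, on chromosome 8 (48917604 to 48921740, minus strand), had 4, 8 and 6 reads, which do not separate the libraries.

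**Figure D3:**
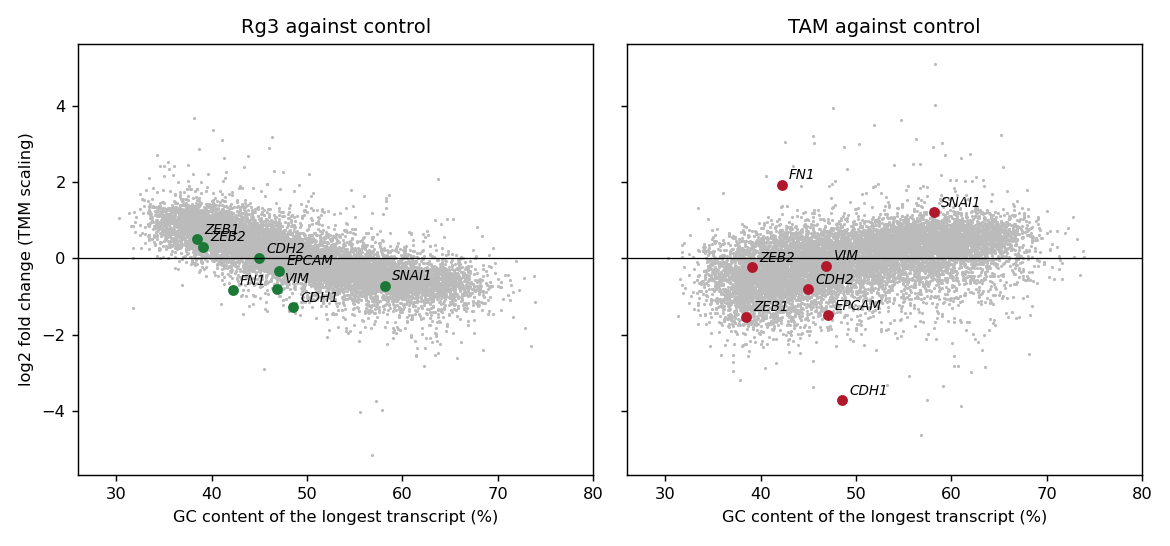
Log2 fold change (TMM scaling) against the GC content of the longest GENCODE 29 transcript, with Rg3 on the left and TAM on the right. Grey points are genes that reached 50 counts in either library, and labelled points are the 8 compared EMT genes. With Rg3, ZEB1 and ZEB2 lie within the band of genes of like GC content, and with TAM, CDH1 (-3.72) and FN1 (1.93) lie outside it. FN1 and ZEB2 did not reach 50 counts, so that the band leaves out other genes of their count level.

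Ratios of reads within a library do not depend on the scaling between libraries. CDH1 made up 10.8% of the 702 reads on CDH1 and CDH2 in control (exact interval 8.63% to 13.4%). The share was 4.74% of 823 reads with Rg3 (3.39% to 6.42%) and 1.60% of 313 reads with TAM (0.521% to 3.69%). Both treated libraries lay below control without overlap, while the intervals of Rg3 and TAM overlapped. There were 8.24 CDH2 reads per CDH1 read in control, 20.1 with Rg3 and 61.6 with TAM. The GC contents of these transcripts are 48.6% for CDH1 and 45.0% for CDH2, and the log2 difference between them relative to control was -1.29 with Rg3 and -2.90 with TAM, or -1.0 and -2.99 without the trend.

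SNAI1 made up 44.5% of the 229 reads on SNAI1 and ZEB1 in control (38.0% to 51.2%), 25.7% of 303 with Rg3 (20.9% to 31.1%) and 84.4% of 243 with TAM (79.2% to 88.7%). The 3 intervals did not overlap, and the order ran from Rg3 over control to TAM. Removal of the GC trend and then of the length trend moved this ratio, and the part of each was not separated. Relative to control, the log2 difference between SNAI1 and ZEB1 was -1.21 with Rg3 and 2.75 with TAM, and without the trend it was 0.07 and 1.38, so that the Rg3 library no longer stood below control. Between the ZEB paralogs, ZEB1 took 82.5% of the 154 reads in control, 84.3% of 267 with Rg3 and 65.5% of 58 with TAM, and the TAM interval (51.9% to 77.5%) overlapped with that of control (75.5% to 88.1%). FN1 took 1.57% of the 636 reads on FN1 and CDH2 in control (0.757% to 2.87%), 0.885% of 791 with Rg3 (0.357% to 1.81%) and 9.68% of 341 with TAM (6.76% to 13.3%), so that only the TAM library stood apart.

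**Figure D4:**
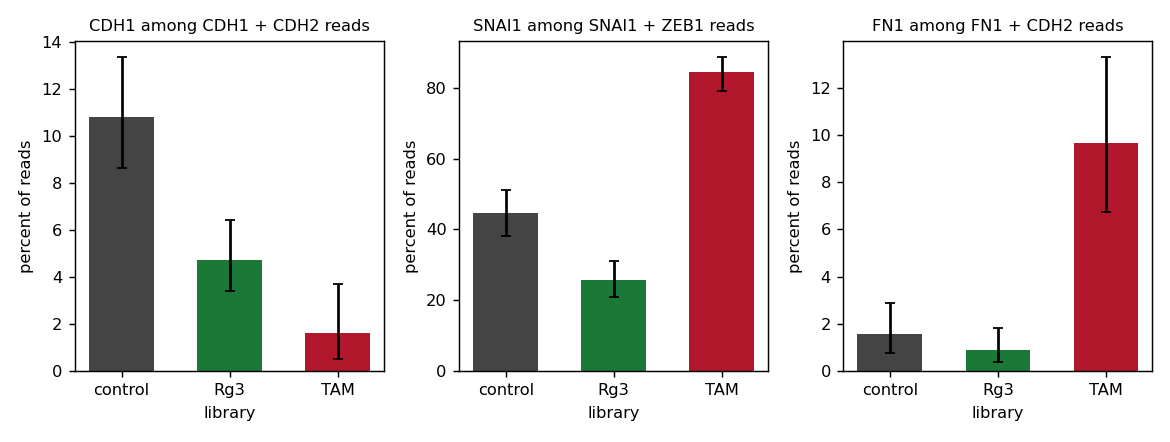
Share of reads within each library for 3 pairs of genes, CDH1 among CDH1 and CDH2 reads, SNAI1 among SNAI1 and ZEB1 reads, and FN1 among FN1 and CDH2 reads. Bars are single libraries, with exact 95% counting intervals. The CDH1 share is 10.8% in control and 1.60% with TAM, and the SNAI1 share is 84.4% with TAM.

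When the treated libraries were set against each other, 3 of the 8 genes compared were higher with TAM than with Rg3 and 4 were lower, and among all 16493 genes 30.0% were higher and 35.1% lower, or 65.1% in either direction. With the binomial test added, 3 were higher and 3 lower, without EPCAM, beside 27.0% and 30.8% of all genes. FN1 (log2 fold change 2.77, 1.57 to 4.19), SNAI1 (1.93, 1.54 to 2.32) and VIM (0.61, 0.59 to 0.63) were higher with TAM. ZEB1 (-2.03, -2.57 to -1.53), CDH1 (-2.43, -4.13 to -1.09), EPCAM (-1.17, -2.52 to 0.02) and CDH2 (-0.82, -1.01 to -0.62) were lower, where the interval of EPCAM includes 0. The value of VIM was 0.26 with library totals, within 1.5-fold. The GC trend was strong between these libraries too (rho 0.78 across 11595 genes). ZEB2 was at -0.54 (-1.38 to 0.26), and at -0.89 with library totals, past the limit. Without the GC and length trends it was at 1.14, past the limit in the other direction, while ZEB1 (-0.52) and CDH2 (-0.29) were within 1.5-fold. CDH1 (-2.27), EPCAM (-1.21), FN1 (4.06), SNAI1 (0.75) and VIM (0.68) kept their calls. The agents differed in dose, 200 μM for Rg3 and 50 μM for TAM, so that these values describe the libraries and not the potency of the agents.

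Other genes of the EMT program were grouped in lists of epithelial, mesenchymal, promoting and opposing genes. Their counts stand beside the shares of all genes, 25.0% higher and 19.3% lower with Rg3, and 17.4% and 23.5% with TAM. Without the GC and length trend, these shares were 10.7% and 8.42% with Rg3, and 13.1% and 16.3% with TAM. Of 34 compared junction, polarity and identity genes of epithelia, 4 were higher and 13 (38.2%) lower with Rg3 (median log2 fold change -0.34), and 2 were higher and 18 (52.9%) lower with TAM (median -0.62). Without the GC and length trend the lower genes were 7 and 14, with medians of -0.08 and -0.38. CDH3 (P-cadherin) was lower in both libraries, with 54, 19 and 12 reads in control, Rg3 and TAM. DSP, the desmosomal plaque protein desmoplakin, had 762, 1044 and 134 reads and a log2 fold change of -2.30 with TAM, and TJP3, a tight junction scaffold, had 104, 54 and 17 reads (-2.41 with TAM). The keratin KRT7 had 248, 93 and 345 reads and was lower with Rg3 (-1.74) and higher with TAM (0.68, but 0.47 with library totals and 0.05 without the trend). The tight junction protein OCLN had 221, 562 and 106 reads and was higher with Rg3 (1.02, but 0.38 without the trend).

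Of the mesenchymal, matrix and motility genes, 3 of 39 were higher and 18 (46.2%, beside 19.3% of all genes) lower with Rg3 (median -0.50), and 5 of 38 were higher and 13 (34.2%, beside 23.5%) lower with TAM (median -0.27). Without the trend, 8 were lower with Rg3 and 12 with TAM, and the medians were -0.23 and -0.09. Among genes of at least 50 counts, the collagen chain COL6A3 had the lowest value of this list with either agent. It had 116, 42 and 10 reads (-1.79 with Rg3 and -3.33 with TAM, -1.45 and -2.97 without the trend). COL5A1, a fibrillar collagen chain, had 658, 392 and 97 reads and a log2 fold change of -2.56 with TAM. MMP2, a matrix metalloproteinase, had 2576, 1191 and 1603 reads (-1.44 with Rg3). S100A4, a calcium-binding protein of motile cells, had 6211, 4612 and 8789 reads (0.71 with TAM, 0.50 with library totals, 0.25 without the trend), and GNG11, a G protein subunit, had 146, 261 and 285 (1.17 with TAM, 1.45 without the trend).

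Among factors that promote EMT, 2 of 28 were higher and 6 (21.4%) lower with Rg3 (median 0.04, -0.15 without the trend), and 3 were higher and 8 (28.6%) lower with TAM (median -0.32, 0.07 without the trend). The shares lower were near the 19.3% and 23.5% of all genes. The lowest values with TAM were those of the ligand TGFB2, with 207, 296 and 62 reads (-1.53, -0.84 without the trend), the kinase LATS2, with 189, 184 and 63 (-1.38, -1.26 without the trend), and the receptor TGFBR1, with 313, 405 and 105 (-1.37, but -0.53 without the trend). The ligand TGFB1 had 456, 455 and 728 reads (0.88 with TAM, 0.35 without the trend), and SMAD3, which carries its signal to the nucleus, had 5671, 4324 and 3204 (-0.72 with Rg3, but -0.58 with library totals and -0.57 without the trend, both within 1.5-fold). The AP-1 subunit FOSL1 had 1385, 1241 and 2088 reads (0.80 with TAM, 0.22 without the trend). Among factors that oppose EMT, 2 of 16 were higher and 4 (25%, beside 19.3% of all genes) lower with Rg3 (median -0.16, 0.05 without the trend), and 1 of 15 was higher and 7 (46.7%, beside 23.5%) lower with TAM (median -0.54, -0.58 without the trend). GRHL3, a grainyhead factor of epithelia, had 159, 48 and 26 reads, with log2 fold changes of -2.05 with Rg3 (-2.55 to -1.58) and -2.41 with TAM (-3.06 to -1.80), and -1.75 and -2.62 without the trend. SMAD7, the inhibitor of TGF-beta signalling, had 131, 112 and 205 reads (0.85 with TAM, 0.60 without the trend). ESRP2, the paralog of ESRP1, had 340, 289 and 202 reads before scaling. After TMM scaling its levels with Rg3 and TAM were close to each other, both below control but within 1.5-fold. The 5 genes of the miR-200 family had no read in any library, and whether the libraries held small RNA is not given in the sources used here.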

How the data were processed

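Total RNA of PANC-1 cells was sequenced by an Ion Proton protocol, per the labels. The authors checked reads with FAST-QC, used TopHat for alignment, and deposited counts per gene symbol without normalization. GRCh38 is named in the submitters' processing notes. The annotation, the counting tool and the use of strand are not given in the sources used here, nor is whether a library pooled cultures. The 10 genes, the lists and the tests were chosen with earlier results of these data known. The genes named were the 10 members and the 2 nearest patterns of each member with at least 50 counts in every library. List genes were taken from the 3 highest and 3 lowest log2 fold changes of each list against control, among genes of at least 50 counts. Only part of these list genes are named in the text. ESRP2, the miR-200 genes and antisense neighbours were added after their values were seen.

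The deposited counts were scaled with TMM factors (edgeR 4.0.16 in R 4.3.3), and ratios were taken in Python 3.11.15. Counts under 3 were raised to 3, and genes at or under 3 in both libraries got no ratio. Limma, named in the methods, and quasi-likelihood tests need replicates, so that a 1.5-fold limit stood in for a test. Intervals are Clopper-Pearson for ratios and shares, and exact Poisson for levels. Lowess trends (span 0.3) on GC content and then length of the longest GENCODE 29 transcript were fitted on genes of at least 50 counts. GC content was known for 86.6% (Rg3) and 87.2% (TAM) of genes compared, and for all 8 members compared. Alternatives were library totals, DESeq2 1.42.0 size factors, minima of 1 and 50 counts, a 2-fold limit, the binomial test, removal of the trends, and edgeR's exact test with a biological coefficient of variation set to 0.2 or to 0.4. The comparison step was tested on simulated Poisson counts with known fold changes and known totals. TMM scaling, removal of the trends, the shares and variation between cultures were not part of that test.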

Additional observations from a re-analysis of the deposited data

How the results depend on the processing

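No paired analysis was possible because a single library stands for each condition, and for the same reason no library could be left out. The spread between cultures is unknown. Where edgeR's exact test took the coefficient of variation as 0.2, there remained 0 EMT genes with Rg3, and 1 lower (CDH1) and 0 higher for TAM. For TAM against Rg3, 2 lower genes remained, and some of the higher ones remained too. In the gene lists 5 were then lower with Rg3 and 12 with TAM, and 0 higher with either agent. With 0.4, 0 of the EMT genes and 0 of the list genes passed in any direction or comparison. Among all genes, 64 were higher at 0.2 with Rg3 (4122 by the fold alone) and 92 lower (3178). For TAM these counts were 109 (2799) and 365 (3781), and for TAM against Rg3 2156 (4950) and 2939 (5793). At 0.4 they were 0 and 1 for either agent, and 0 and 0 between the agents.

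With library totals, 1 EMT gene was higher with Rg3 (ZEB1), CDH2 had 0.14 with Rg3, and 24 list genes were higher with Rg3 and 5 with TAM. KLF4 with TAM had -0.0911. For all genes, the Rg3 split was then 5180 higher to 2279 lower, the TAM split 1576 to 5234, and that of TAM against Rg3 3105 to 7466. With DESeq2's size factors each of the 24 member values kept its direction and its side of 1.5-fold. With a minimum of 1 count, SNAI2 was added as higher with both agents, on 4, 8 and 6 reads in control, Rg3 and TAM. The EMT genes higher were then 1 with Rg3 and 3 with TAM. With a minimum of 50 counts, 1 was higher with TAM and 2 were lower for TAM against Rg3, and of all genes 2099 were lower with Rg3 and 2498 with TAM. With a 2-fold limit, 1 EMT gene was lower with Rg3 (CDH1), and the lists held 6 higher and 22 lower genes for Rg3, and 1 and 26 for TAM. All genes then split 1470 to 1149 for Rg3 and 862 to 1824 for TAM, and 2781 were higher with TAM than with Rg3. With the binomial test, 22 of the 24 member values kept their call, and those of FN1 with Rg3 and of EPCAM for TAM against Rg3 lost it.

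After removal of the GC and length trends, 2 EMT genes were lower for TAM against Rg3 (CDH1 and EPCAM, with ZEB1 and CDH2 lost), the lists had 5 higher and 21 lower genes for Rg3, and the sign turned for ZEB1 (-0.21) and ZEB2 (-0.36) with Rg3 and for ZEB2 with TAM (0.80) and for TAM against Rg3 (1.14). Of the other named genes it turned with Rg3 for ATM (-0.15), ITGB1 (-0.0583), SKIL (-0.37) and SMAD2 (-0.00638), and with TAM for COPS2 (0.28), FBXL14 (-0.18), KLF4 (-0.24) and KRT18 (-0.0238). Against control, TAM then had ZEB2 (0.80) past 1.5-fold and CDH2 (-0.53) within it. For all genes, the Rg3 split was 1521 to 1202, the TAM split 1832 to 2292, and that between the agents 2157 to 3508. The cause of these changes was not tested. The depth limits ESRP1 and SNAI2, with at most 3 and 8 reads, and the wide intervals of EPCAM, FN1 and ZEB2.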

Other observations

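Genes that act on the stability of the SNAI1 and ZEB proteins, or on their phosphorylation, were 12 in the table. With Rg3, 2 (16.7%) were higher and 1 (8.33%) was lower, beside 25.0% and 19.3% of all genes (median log2 fold change 0.09, -0.14 without the GC and length trend), and with TAM 1 (8.33%) was higher and 4 (33.3%) were lower, beside 17.4% and 23.5% (median -0.44, 0.19 without the trend). GSK3B, the kinase that marks SNAI1 for degradation, had 99, 269 and 83 reads in control, Rg3 and TAM (1.12 with Rg3, 0.61 without the trend). COPS2, a signalosome subunit, had 214, 678 and 120 reads (1.34 with Rg3, 0.44 without the trend), and its value with TAM was -0.63, or 0.28 without the trend. LOXL3, an amine oxidase that binds SNAI1, had 50, 21 and 67 reads, with -1.58 with Rg3 (-1.07 without the trend) and 0.63 with TAM, but 0.42 with library totals and 0.31 without the trend.

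The genes whose pair of log2 fold changes lay nearest to that of a member were sought among 10506 genes with at least 50 counts in each of the 3 libraries, by Euclidean distance. CDH2 lay nearest to NUDT19 (distance 0.00578) and ARHGAP32 (0.00754), with 33 genes within 0.1. VIM lay nearest to LOC100130331 (0.00314) and TSPAN31 (0.00921), with 31 genes within 0.1. SNAI1, higher with TAM and lower with Rg3, lay in a sparser region, with 5 genes within 0.1, of which JMJD8 (0.0591) and C19orf60 (0.0813) were nearest. The distances were taken on TMM-scaled values with the GC and length trends still in them. The Rg3 value of SNAI1 was -0.13 without the trend and -0.57 with library totals, both within 1.5-fold. The distances of the named neighbours are smaller than the counting intervals of the members' own values, so that the order of nearness is not settled. LOC100130331, for example, had only 143, 103 and 109 reads in control, Rg3 and TAM. CDH1, EPCAM, ESRP1, FN1, ZEB1, ZEB2 and SNAI2 were under 50 counts in at least 1 library and were not placed.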
